A study of Mus musculus with 9 samples.

Results

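Glucose and lactate transport was followed through 8 listed genes, which were found by their symbols among the 22092 genes with counts. They encode the glucose transporters Slc2a1 (GLUT1) and Slc2a3 (GLUT3), the monocarboxylate transporters Slc16a1 (MCT1), Slc16a3 (MCT4) and Slc16a7 (MCT2), their chaperone Bsg (basigin, CD147) and the lactate dehydrogenases Ldha and Ldhb. Of the 8, 7 passed the filter on low counts and were among the 14427 genes tested, while Slc16a3 did not pass. The study asked which mRNAs are bound to ribosomes in the perivascular endfeet of astrocytes, compared with the whole astrocyte. Mice of strain Aldh1L1 JD130 with genotype tg:Aldh1L1-L10aGFP, 2 months old, gave all libraries, so both groups carried the transgene and no group lacked it. In these mice the Aldh1l1 promoter, carried on a bacterial artificial chromosome, drives the ribosomal protein L10a fused to eGFP in astrocytes, and translating ribosome affinity purification (TRAP) pulls down tagged ribosomes with their mRNAs. For whole astrocyte TRAP, 3 libraries were made from 1 brain each, from which the choroid plexus had been removed. The 6 endfeet TRAP libraries came from mechanically purified brain vessels, to which endfeet stay attached, pooled from 8 mice for each library. Separate brains and separate pools make up the replicates, and the p-values below measure only the spread between them.

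Glucose enters the brain through GLUT1, which is abundant in the endothelium of the blood-brain barrier and is also found in astrocyte endfeet, while GLUT3 is the main glucose transporter of neurons. MCTs carry lactate, pyruvate and ketone bodies together with a proton. MCT1 is found in endothelial cells and glia, MCT2 mainly in neurons and MCT4 mainly in astrocytes, and MCT1 and MCT4 need basigin to reach the plasma membrane. Lactate dehydrogenase is a tetramer of LDHA and LDHB subunits. LDHA-rich forms are associated with lactate production and LDHB-rich forms with its use, and lactate made by astrocytes has been proposed to feed neurons.

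Total gene counts ranged from 35984144 to 43521208 in whole astrocyte TRAP and from 2319495 to 13450588 in endfeet TRAP, with endfeet library 6 the smallest. Levels are given as normalized CPM, that is, CPM of counts after TMM (trimmed mean of M values) scaling. With 3 counts taken as the floor, the limit was 0.0658 to 0.0810 normalized CPM for whole astrocyte TRAP against 0.197 to 1.37 for endfeet TRAP, and floors and counting intervals cover counting error only. The common dispersion was 0.0141 among whole astrocyte libraries and 0.724 among endfeet libraries. Aldh1l1, the gene whose promoter drives the tag, ranged from 242 to 268 normalized CPM in whole astrocyte TRAP and from 17.7 to 88.7 in endfeet TRAP. Markers of vascular cells were present in the endfeet libraries. The summed level of 12 endothelial markers was 7.40 to 8.51 normalized CPM in whole astrocyte TRAP, where Ly6c1 was at 0 in each library, and 2926 to 4484 in endfeet TRAP. That of 10 mural markers was 54.5 to 66.8 against 3661 to 8207, and that of 8 ependymal and choroid plexus markers was 55.7 to 1472 against 6606 to 88303. Most of the latter sum in endfeet TRAP was Ttr, a choroid plexus gene, with 28.4 to 1381 against 6389 to 86683 normalized CPM. In bulk libraries like these, fewer cells of a type and less RNA per cell cannot be told apart.

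mRNAs of the main barrier glucose transporter, of MCT1 and of basigin were higher in endfeet TRAP than in whole astrocyte TRAP, by 23.3-fold for Slc2a1, 11.9-fold for Slc16a1 and 18.3-fold for Bsg. Slc16a7 was 4.03-fold higher, with a call that most alternatives did not keep. Ldhb was 7.75-fold lower in endfeet TRAP. Slc2a3 and Ldha did not pass the threshold, and Slc16a3 had at most 17 counts in any library. With edgeR's quasi-likelihood test and Benjamini-Hochberg adjustment over all tested genes (adjusted p of at most 0.05), 5 of the 7 tested members were called, 4 higher and 1 lower, while 34.6% of all tested genes were called, 20.7% as higher and 13.9% as lower. The median log2 fold change of the 7 members was 2.01, against 0.0965 over all tested genes. In 5 members the groups did not overlap, 3 with endfeet TRAP above and 2 below, and this held for 42.7% of all tested genes (18.9% above and 23.8% below).

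**Figure D1:**
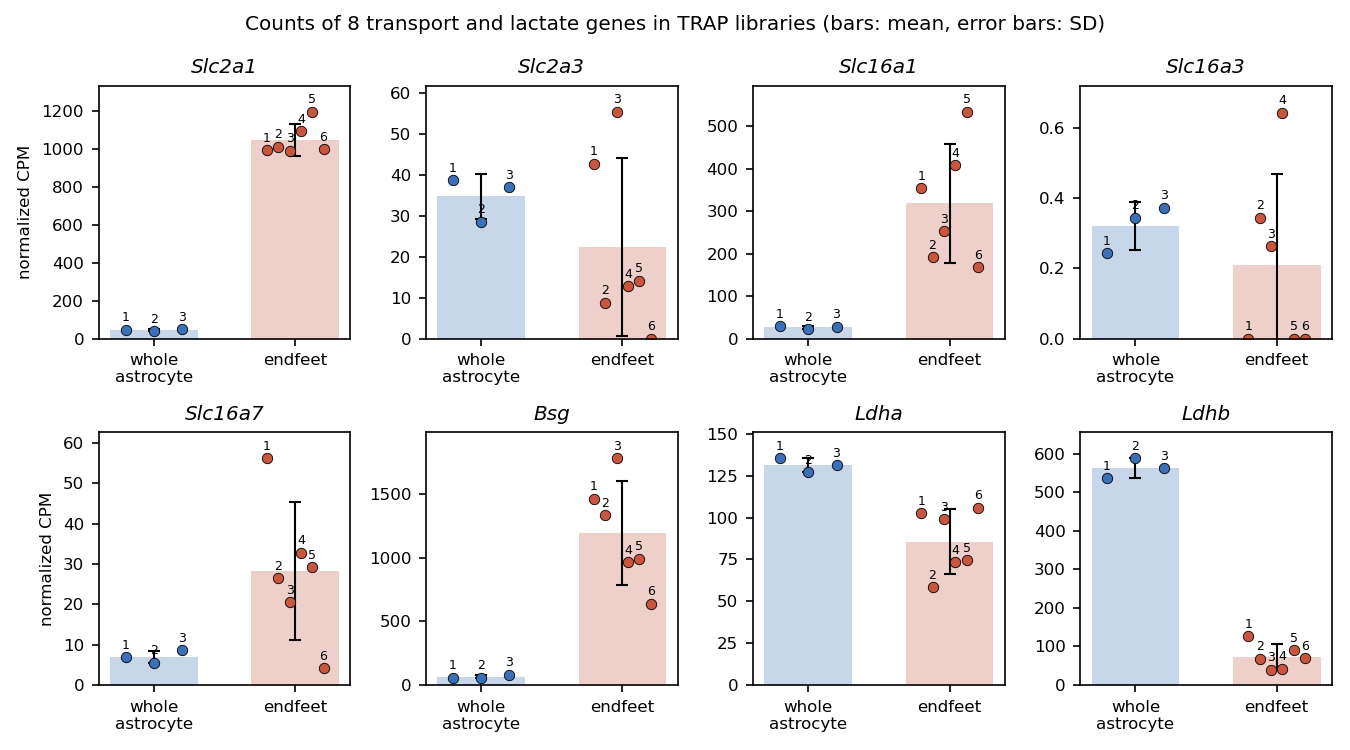
Normalized CPM (vertical axes, linear, each starting at 0) of the 8 genes in 3 whole astrocyte TRAP libraries (blue) and 6 endfeet TRAP libraries (red). Points are single libraries with their replicate numbers, bars are means and error bars SD. For Slc2a1, Slc16a1 and Bsg the 6 red points lie above the 3 blue ones, and for Ldha and Ldhb below them.

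Slc2a1 (ENSMUSG00000028645.11, chromosome 4, 119108711 to 119137983, plus strand, mm10) encodes GLUT1. It had 47.0, 38.2 and 49.5 normalized CPM in whole astrocyte libraries 1 to 3, and its lowest, median and highest values in endfeet TRAP were 990.5, 1006 and 1197. Every endfeet library was thus far above every whole astrocyte library, and the endfeet libraries lay close together. The means were 44.9 ± 5.96 (SD, n = 3) and 1048 ± 82.6 (SD, n = 6), with a log2 fold change of 4.54 ± 0.270 (SE, 95% interval 3.96 to 5.13, adjusted p = 1.76e-07 in edgeR). By its mean level, Slc2a1 moved from position 4383 to position 72 of the 22092 genes. Its 3′ end overlaps the antisense gene Gm12868 in the annotation, no transcript of which was matched, and the use of strand in the counting is not stated, so reads of this pair cannot be told apart.

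Few mRNAs varied as little as Slc2a1 among the endfeet libraries. The SD of its log2(normalized CPM + 0.5) over the 6 libraries was 0.110, and 36 of the 14427 tested genes (0.250%) had a smaller one. Relative to the mean of the 12 endothelial markers the SD was 0.373, and relative to the mean of 12 astrocyte markers it was 0.473. With so small an SD of its own, these relative values mainly reflect the spread of the marker lists. Ldha (0.341 alone, 0.546 and 0.677 relative to the lists) and Bsg (0.527, 0.545 and 0.770) had the same order. The comparison with all tested genes takes no account of their level.

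Slc2a3 (ENSMUSG00000003153.10, chromosome 6, 122727809 to 122801640, minus strand) encodes GLUT3. It had 38.6, 28.5 and 37.0 normalized CPM in whole astrocyte TRAP. In endfeet TRAP it had 42.7, 8.72, 55.4, 12.7, 14.1 and 0 in libraries 1 to 6. Endfeet libraries 1 and 3 were above every whole astrocyte library and the 4 others below, so the groups overlapped. The means were 34.7 ± 5.44 (SD, n = 3) and 22.3 ± 21.7 (SD, n = 6), and the endfeet libraries differed among themselves by more than the groups did (log2 fold change -0.63 ± 0.908 SE, 95% interval -2.59 to 1.33, adjusted p = 0.622 in edgeR). Library 6, which had no count of Slc2a3, is the smallest, and its floor was 1.37 normalized CPM. Neuronal markers as a list were lower in endfeet TRAP, with a summed level of 3755 to 4336 normalized CPM in whole astrocyte libraries against 1106 to 2083. The largest part of the sum was Snap25 (2700 to 3237 against 515 to 1377). Of the 10, 3 passed the threshold as lower, where 13.9% of all tested genes did. Slc17a7 (20.1 to 31.9 against 26.5 to 91.3) and Stmn2 (82.3 to 94.7 against 56.3 to 198) were among those whose ranges overlapped. The part of neuronal mRNAs in the result for Slc2a3 was not tested.

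Slc16a1 (ENSMUSG00000032902.1, chromosome 3, 104638668 to 104658462, plus strand) encodes MCT1. It had 29.7, 22.7 and 28.1 normalized CPM in whole astrocyte TRAP, and 354, 192, 253, 408, 535 and 167 in endfeet libraries 1 to 6. All endfeet libraries were above all whole astrocyte libraries, with libraries 5 and 4 highest and 6 lowest. The means were 26.8 ± 3.68 (SD, n = 3) and 318 ± 141 (SD, n = 6), with a log2 fold change of 3.57 ± 0.432 (SE, 95% interval 2.64 to 4.50, adjusted p = 4.12e-05 in edgeR). Its position by mean level went from 6111 to 493.

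Among the endfeet libraries, Slc16a1 followed the astrocyte markers more closely than the endothelial ones. The SD of its log2 level over the 6 libraries was 0.651, and it was 0.242 relative to the astrocyte markers and 0.799 relative to the endothelial markers. The SD was also smaller relative to astrocyte markers for Slc16a7 (0.964 against 1.35), Ldhb (0.622 against 0.960) and Slc2a3 (2.28 against 2.40). Slc2a1, Bsg and Ldha went the other way. Endfeet libraries 1, 4 and 5, which held the most Slc16a1, also held the most Aldh1l1, with 88.7, 59.3 and 67.5 normalized CPM. The same libraries were highest for the markers Slc1a2, Aldoc, Gfap, Aqp4, Gja1, Slc4a4, Fgfr3 and Gjb6, but not for Sox9, Acsbg1 and Slc1a3. Sox9 was lowest in endfeet library 1 (31.5 normalized CPM). These SDs describe 6 libraries and were not tested.

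**Figure D2:**
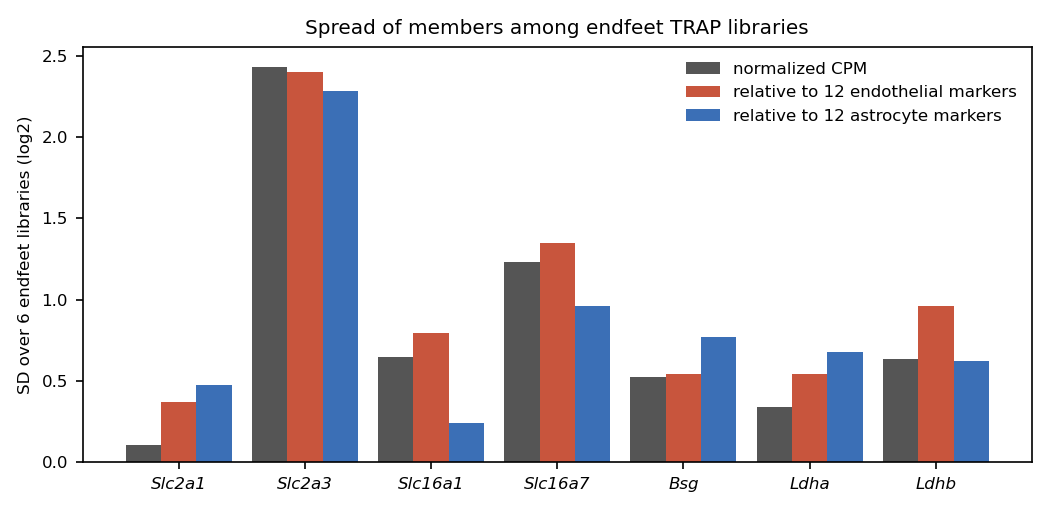
SD over 6 endfeet libraries (vertical axis, log2 units) of each tested gene's normalized CPM (grey), and of its level relative to the mean of 12 endothelial (red) or 12 astrocyte markers (blue). The grey bar of Slc2a1 stands at 0.110, and for Slc16a1 the blue bar (0.242) is below the grey (0.651) and red (0.799) bars.

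Slc16a7 (ENSMUSG00000020102.15, chromosome 10, 125219270 to 125389465, minus strand) encodes MCT2, which has a high affinity for lactate and pyruvate. It had 6.86, 5.58 and 8.62 normalized CPM in whole astrocyte TRAP, and 4.11 at the lowest, 27.8 at the median and 56.2 at the highest in endfeet TRAP. The lowest, endfeet library 6, rests on 9 counts and was below every whole astrocyte library, while the 5 others were above. The means were 7.02 ± 1.53 (SD, n = 3) and 28.2 ± 17.0 (SD, n = 6), with a log2 fold change of 2.01 ± 0.705 (SE, 95% interval 0.488 to 3.53, adjusted p = 0.0418 in edgeR). The call was kept without endfeet library 1 or 6 and lost without any 1 of the 7 other libraries (adjusted p up to 0.158 in edgeR).

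Slc16a3 (ENSMUSG00000025161.16, chromosome 11, 120948480 to 120960868, plus strand) encodes MCT4, a transporter known for lactate export from glycolytic cells. It had 9, 13 and 17 raw counts in whole astrocyte libraries 1 to 3 and 0, 3, 4, 8, 0 and 0 in endfeet libraries 1 to 6. The counts summed over each group gave 0.324 normalized CPM (exact Poisson 95% interval 0.230 to 0.443) in whole astrocyte TRAP and 0.261 (0.146 to 0.430) in endfeet TRAP. Both intervals overlap widely, and a difference was not detectable at this depth.

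Bsg (ENSMUSG00000023175.15, chromosome 10, 79704491 to 79711969, plus strand) encodes basigin, a membrane glycoprotein that escorts MCT1 and MCT4 to the cell surface. It had 58.4, 57.7 and 80.4 normalized CPM in whole astrocyte TRAP, and 1462, 1335, 1780, 966, 990.4 and 639 in endfeet libraries 1 to 6. The lowest endfeet library was above the highest whole astrocyte library, and libraries 1 to 3 were above libraries 4 to 6. The means were 65.5 ± 12.9 (SD, n = 3) and 1196 ± 409 (SD, n = 6), with a log2 fold change of 4.19 ± 0.389 (SE, 95% interval 3.35 to 5.03, adjusted p = 4.56e-06 in edgeR). Its position by mean level went from 3247 to 54.

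Slc2a1, Slc16a1 and Bsg are all known in brain endothelium, and markers of that cell type rose with them. Each of the 12 endothelial markers and all 10 mural markers were called higher, where 20.7% of all tested genes were. So were 7 of 8 fibroblast markers, 7 of 10 microglia and macrophage markers, 7 of 8 ependymal and choroid plexus markers and 4 of 4 tested red blood cell markers. The summed level of fibroblast markers was 85.1 to 144 normalized CPM in whole astrocyte TRAP against 2568 to 5968, that of microglia and macrophage markers 22.7 to 26.8 against 231 to 370 and that of red blood cell markers 1.54 to 2.81 against 36.7 to 123. Cldn5, which forms endothelial tight junctions, was at 0.132 to 0.783 normalized CPM in whole astrocyte libraries and at 107 to 538 in endfeet libraries, whereas Slc2a1, Slc16a1 and Bsg were at 22.7 or more in every whole astrocyte library. The part of these cell types in the higher levels of the 3 members was not tested.

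Ldha (ENSMUSG00000063229.15, chromosome 7, 46841475 to 46855627, plus strand) encodes the LDHA subunit. It had 136, 127 and 131 normalized CPM in whole astrocyte TRAP, and 58.5 at the lowest, 86.9 at the median and 106 at the highest in endfeet TRAP. All endfeet libraries were below all whole astrocyte libraries, a pattern given above for all tested genes. The means were 131 ± 4.27 (SD, n = 3) and 85.7 ± 19.4 (SD, n = 6), and their difference missed the threshold (log2 fold change -0.62 ± 0.278 SE, 95% interval -1.22 to -0.0155, adjusted p = 0.104 in edgeR). Without endfeet library 1 it passed (adjusted p = 0.0415 in edgeR). Limma voom, which was run with weights for each group and called 58.3% of all tested genes, also called Ldha (adjusted p = 0.0105). Ldha has near-identical processed copies in the mouse genome, and reads that aligned more than once had been removed, so its level is uncertain.

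Ldhb (ENSMUSG00000030246.11, chromosome 6, 142490249 to 142507957, minus strand) encodes the LDHB subunit. It had 536, 588 and 563 normalized CPM in whole astrocyte TRAP, and 127, 68.1, 39.4, 42.6, 90.1 and 68.9 in endfeet libraries 1 to 6. The highest endfeet library was far below the lowest whole astrocyte library. The means were 562 ± 26.0 (SD, n = 3) and 72.6 ± 32.5 (SD, n = 6), with a log2 fold change of -2.95 ± 0.337 (SE, 95% interval -3.68 to -2.23, adjusted p = 2.61e-05 in edgeR). Ldhb fell from position 204 to position 3123 by mean level. The astrocyte marker score, a mean over 12 genes of log2(CPM + 1), was lower too, by an average difference of -1.25 (two-sided exact permutation, adjusted p = 0.0238), and 5 of the 12 markers passed the threshold as lower while 1, Aqp4, passed as higher (424 to 594 normalized CPM against 648 to 2328). Over all tested genes, 13.9% were called lower and 20.7% higher. The summed level of the 12 overlapped between groups (24340 to 26657 against 10452 to 31546 normalized CPM). Its largest parts moved differently. Aldoc had 10753 to 10958 against 343 to 1063, and Slc1a2 had 6910 to 8887 against 6451 to 22593. The overlap of the sum therefore does not show an unchanged astrocyte share. The part of a different astrocyte share in the result for Ldhb was not tested.

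Endfeet libraries 4 to 6 and the whole astrocyte libraries carry numbers of one series in the deposited data, and endfeet libraries 1 to 3 numbers of another. Against endfeet libraries 4 to 6 only, the log2 fold changes were 4.48 for Slc2a1, 3.65 for Slc16a1, 3.59 for Bsg and -3.20 for Ldhb, all past the threshold (adjusted p between 3.65e-05 and 0.000892 in edgeR). Slc16a7 no longer passed there (1.53, adjusted p = 0.142), Ldha passed (-0.76, adjusted p = 0.0380) and Slc2a3 did not (-2.03, adjusted p = 0.145).

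The order of the 8 mRNAs differed between both groups. Levels of different genes were compared per kilobase of the transcript that represents each gene, as normalized CPM per kilobase. In whole astrocyte TRAP the order was Ldhb (431 ± 20.0, SD, n = 3), Ldha (82.7 ± 2.69), Bsg (51.9 ± 10.2), Slc2a1 (13.8 ± 1.83), Slc16a1 (6.06 ± 0.831), Slc2a3 (5.55 ± 0.869), Slc16a7 (2.90 ± 0.630) and Slc16a3 (0.0738 ± 0.0157). Of these neighbours, the ranges of Slc16a1 and Slc2a3 overlapped and those of the others did not.

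In endfeet TRAP, Bsg (948 ± 324, SD, n = 6) and Slc2a1 (321 ± 25.3) came first, and their ranges overlapped neither each other nor the next. Slc16a1 (71.9 ± 31.8), Ldhb (55.7 ± 24.9) and Ldha (54.0 ± 12.2) followed, with overlapping ranges. Slc16a7 (11.7 ± 7.04), Slc2a3 (3.56 ± 3.47) and Slc16a3 (0.0481 ± 0.0602) came last. The range of Slc16a7 overlapped that of Slc2a3 but not that of Ldha. Slc16a3, at most 0.148, overlapped Slc2a3 only through endfeet library 6, where Slc2a3 was at 0. The next lowest value of Slc2a3 was 1.40. Slc2a3 was represented by a retained-intron transcript of 6253 bases. With the 3959 bases of its coding transcript, chosen after the values were seen, it had 8.77 ± 1.37 in whole astrocyte TRAP, above Slc16a1, and 5.63 ± 5.48 in endfeet TRAP.

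Ratios between members within a library do not depend on the scaling of that library, and 6 ratios were tested by two-sided exact permutation of the group labels (84 arrangements, smallest possible p 0.0119). A count of 0.5 was added to each value. The ratio of Slc2a1 to Slc2a3 per kilobase was 2.33 to 2.57 in whole astrocyte TRAP and 34.3 to 8396 in endfeet TRAP, the highest being library 6 with no count of Slc2a3 (difference of mean log2 ratios 6.37, exact permutation, adjusted p = 0.0238). By counts per kilobase, the barrier form of the glucose transporter thus stood above the neuronal form in all 9 libraries, and by more in 6 of 6 endfeet libraries. The size of this ratio depends on the length taken for Slc2a3. With its coding transcript, Slc2a3 had 8.77 ± 1.37 in whole astrocyte TRAP, against 13.8 ± 1.83 for Slc2a1. The ratio of Ldha to Ldhb was 0.208, 0.177 and 0.192 in whole astrocyte TRAP. In endfeet libraries 1 to 6 it was 0.665, 0.706, 2.07, 1.42, 0.679 and 1.26. By counts per kilobase, Ldhb thus exceeded Ldha in each whole astrocyte library. In endfeet TRAP Ldha was higher in libraries 3, 4 and 6 and Ldhb in libraries 1, 2 and 5. The ratio was higher in 6 of 6 endfeet libraries (difference 2.42 on the log2 scale, exact permutation, adjusted p = 0.0238). Reads of Ldha that aligned more than once had been removed, and most Ldhb counts lay at its 3′ end. Which of these mRNAs was the more abundant is therefore uncertain. Neither the Slc2a1 to Slc2a3 nor the Ldha to Ldhb ratio passed without endfeet library 6 (differences 5.30 and 2.36, exact permutation, adjusted p = 0.0536 for both). Neither passed without any 1 whole astrocyte library (differences 6.32 to 6.39 and 2.37 to 2.48, exact permutation, adjusted p = 0.0857). With a library left out, fewer arrangements exist and the smallest possible p is larger, so a lost call need not mean a smaller difference.

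The ratios of Slc16a1 to both other MCTs were higher in endfeet TRAP. Its ratio to Slc16a7 was 1.78 to 2.36 in whole astrocyte TRAP and 3.44 to 21.1 in endfeet TRAP (difference 1.76, exact permutation, adjusted p = 0.0429). Its ratio to Slc16a3 was higher by 4.17 on the log2 scale (exact permutation, adjusted p = 0.0238), a value that rests on the added counts where Slc16a3 was at 0. The ratio of Slc2a1 to Slc16a1 was also higher, at 2.15 to 2.39 against 3.04 to 8.09 (difference 1.09, exact permutation, adjusted p = 0.0357). None of these 3 passed without any 1 whole astrocyte library (exact permutation, adjusted p = 0.0857) or without endfeet library 6 (0.0536 to 0.0643). Those to Slc16a7 and of Slc2a1 to Slc16a1 did not without endfeet library 2 or 3 either. Here too, fewer arrangements were available with a library left out. For Bsg to Slc16a1 the ratios of both groups overlapped (6.90 to 10.04 against 6.50 to 24.7, difference 0.67, exact permutation, adjusted p = 0.214), so a change in the balance of chaperone and transporter was not shown.

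**Figure D3:**
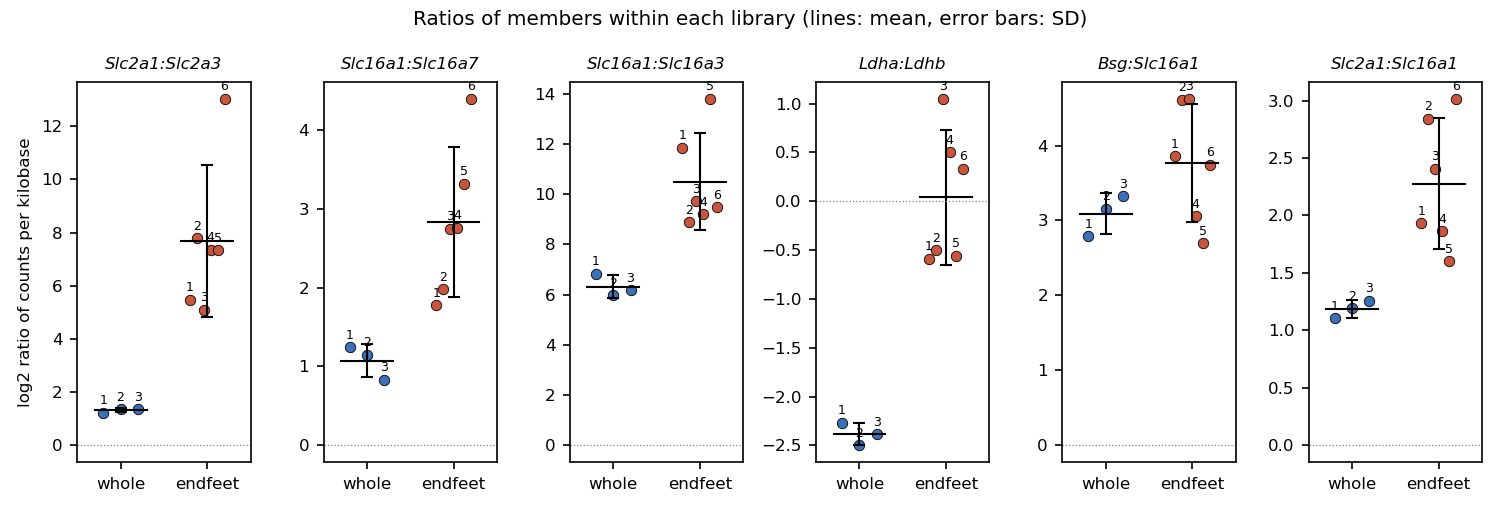
Log2 ratios of counts per kilobase (vertical axes, 0 marks equal levels) for 6 pairs of members in 3 whole astrocyte (blue) and 6 endfeet TRAP libraries (red), with replicate numbers, means (lines) and SD (error bars). All endfeet points lie above all whole astrocyte points except for Bsg to Slc16a1, and the Ldha to Ldhb ratios of endfeet TRAP lie on both sides of 0.

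Reads were not spread evenly over the members' transcripts. For Ldhb, a transcript of 437 bases at the 3′ end of the gene held 95.1% to 96.2% of the counts of the full-length transcript in whole astrocyte TRAP and 95.5% to 100% in endfeet TRAP. A transcript of Ldha that lacks the last 2 exons held 6.69% to 9.60% in whole astrocyte TRAP against 0.656% to 3.57% in endfeet TRAP, lower in 6 of 6 libraries. For Bsg, a transcript of the first exons held 45.8% to 47.8% against 38.6% to 42.5%, also lower in 6 of 6, while the corresponding shares of Slc2a1 overlapped (5.98% to 7.35% against 3.31% to 6.99%). For Ldhb, a transcript of exons 2 to 5 with another first exon held 5.95% to 7.73% against 1.99% to 8.11%. Endfeet libraries below all whole astrocyte libraries numbered 5 of 6 for Ldhb and 3 of 6 for Slc2a1. Counts of the 5′ part were thus a smaller share in all endfeet libraries for Ldha and Bsg and in most for Ldhb. Levels per kilobase depend on where the reads lie. The part of this difference in the fold changes was not tested.

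**Figure D4:**
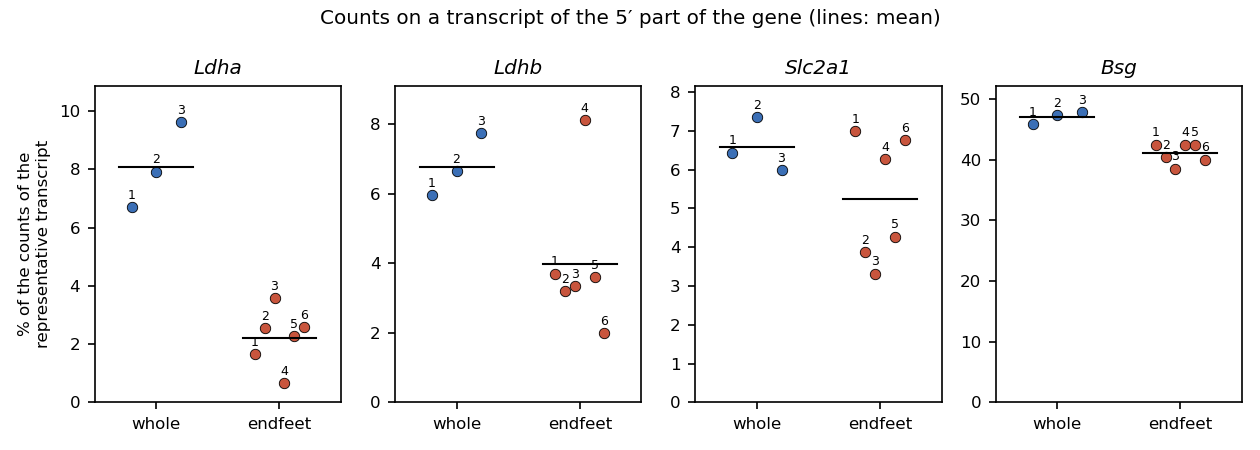
Counts on a transcript made of exons from the 5′ part of the gene, as percent of the counts of the gene's representative transcript (vertical axes, starting at 0), in whole astrocyte (blue) and endfeet TRAP libraries (red), with replicate numbers and means (lines). For Ldha and Bsg the endfeet points lie below all whole astrocyte points, and for Ldhb and Slc2a1 they overlap.

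The 250 bases before the start of transcription are shown for 4 members that moved differently, Slc2a1 and Slc16a1, which rose, Ldhb, which fell, and Ldha, which was not called. Slc2a1 and Ldha are known targets of hypoxia-inducible factors, whose response elements hold the core ACGTG or GCGTG. The sequences are those of RefSeq on GRCm38.p6 (the mm10 build), 5′ to 3′ on the strand of the gene, with ACGTG and its reverse complement CACGT in capitals and GCGTG left in lower case. They lie at chr4:119108495-119108744 for Slc2a1 and chr3:104638414-104638663 for Slc16a1, both on the plus strand, at chr7:46845554-46845803 on the plus strand for Ldha (the first of 2 listed starts) and at chr6:142507958-142508207 on the minus strand for Ldhb.
Slc2a1: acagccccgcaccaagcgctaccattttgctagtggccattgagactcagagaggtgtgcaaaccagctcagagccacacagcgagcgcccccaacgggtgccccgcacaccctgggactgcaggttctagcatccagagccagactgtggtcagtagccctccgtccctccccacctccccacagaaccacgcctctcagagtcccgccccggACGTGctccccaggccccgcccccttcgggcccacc
Slc16a1: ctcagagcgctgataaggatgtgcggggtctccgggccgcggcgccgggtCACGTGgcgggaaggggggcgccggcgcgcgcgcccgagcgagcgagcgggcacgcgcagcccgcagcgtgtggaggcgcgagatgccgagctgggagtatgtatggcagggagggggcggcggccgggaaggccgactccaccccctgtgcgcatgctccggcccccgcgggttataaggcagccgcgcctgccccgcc
Ldha: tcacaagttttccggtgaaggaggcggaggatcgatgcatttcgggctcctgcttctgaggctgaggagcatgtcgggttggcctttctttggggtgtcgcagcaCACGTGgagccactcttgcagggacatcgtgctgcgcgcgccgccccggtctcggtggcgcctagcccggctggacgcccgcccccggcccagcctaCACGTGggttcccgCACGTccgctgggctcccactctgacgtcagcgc
Ldhb: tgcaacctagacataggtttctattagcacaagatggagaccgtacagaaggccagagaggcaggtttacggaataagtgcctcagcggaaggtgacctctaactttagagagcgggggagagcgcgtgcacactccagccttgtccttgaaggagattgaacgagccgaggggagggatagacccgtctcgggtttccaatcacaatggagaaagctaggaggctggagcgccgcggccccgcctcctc
In these stretches ACGTG was found 1 time before Slc2a1, 2 times before Slc16a1, 5 times before Ldha and 0 times before Ldhb, where CACGTG counts on both strands as 2 overlapping matches. Windows of 300 bases (250 before to 50 after the start) were listed for 5 of the 8 members, Slc16a3 being the other, with 2 starts for Ldha and so 6 windows. ACGTG on either strand was in 4 of the 6, against 19.6% of all 32851 windows, and was not in the window of the second Ldha start. GCGTG on either strand was in 5 of the 6, that of Ldhb included and that of Slc16a3 not, against 32.4% of all windows. The members with ACGTG included ones that rose (Slc2a1, Slc16a1), 1 that was not called (Ldha) and 1 with few counts in both groups (Slc16a3). These are matches of letters, which say nothing of binding.

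Other genes of the pathway were taken from 7 lists, which held 64 genes, 63 of them in the data and 55 tested. Of the 55, 14 rose in endfeet TRAP, 10 fell and 31 missed the threshold, with a median log2 fold change of 0.70, where 20.7% of all tested genes were called higher and 13.9% lower. Transporters made up most of the genes that rose, and pyruvate handling in mitochondria most of those that fell.

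Among 10 other tested glucose transporters, 2 were higher and 0 lower in edgeR, with a median log2 fold change of 1.498, against 20.7% of all tested genes higher. At an unadjusted p of at most 0.05, with DESeq2 and with limma voom, 4 were higher and 0 lower, where those settings called 25.6%, 25.6% and 27.2% of all genes higher and 19.0%, 16.2% and 31.1% lower. Slc2a12 (GLUT12) rose from 18.1 ± 0.917 normalized CPM (SD, n = 3) to 104 ± 48.3 (SD, n = 6), a log2 fold change of 2.53 ± 0.443 (SE, edgeR's adjusted p = 0.000738). Slc2a4, the insulin-responsive GLUT4, rose from 0.946 ± 0.101 to 17.4 ± 15.7 (4.18, adjusted p = 0.00530). Slc2a13, a proton-coupled inositol transporter and the most counted of the list in whole astrocyte TRAP, had 44.9 ± 4.53 against 43.4 ± 30.5 and was not called (adjusted p = 0.965).

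Of 11 other tested monocarboxylate transporters, 7 were higher and 0 were lower in edgeR, with a median log2 fold change of 4.06, where 20.7% of all tested genes were higher. At an unadjusted p of at most 0.05, with DESeq2 and with limma voom, 10 were higher and 0 lower, against 25.6%, 25.6% and 27.2% of all genes higher. Slc16a4 had the largest fitted change among the members of the list with counts in both groups, from 0.305 ± 0.258 to 122 ± 58.4 normalized CPM (log2 fold change 8.59, edgeR's adjusted p = 5.46e-06). Slc16a9, Slc16a6 and Slc16a12, of which the last carries creatine, rose by 3.17, 3.60 and 4.64 on the log2 scale.

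In each of those 4 transporters all endfeet libraries were above all whole astrocyte libraries, as for 18.9% of all tested genes. Slc16a10, an aromatic amino acid transporter, and Slc16a5 rose at low levels, to means of 7.42 ± 5.25 and 4.06 ± 2.81 normalized CPM. Slc16a5 lost its call without any 1 whole astrocyte library (adjusted p up to 0.142 in edgeR) and, by a narrow margin, with counts summed over transcripts, and Slc16a10 without whole astrocyte library 3 (0.0581). Slc5a12, a sodium-coupled lactate transporter, had 0 counts in whole astrocyte TRAP and 84 counts in endfeet TRAP, of which 2 libraries had none. Its endfeet mean of 1.65 ± 2.18 normalized CPM (SD) was 66.1-fold a floor of 3 counts over the whole astrocyte group. Only the floor is a bound in this ratio, and edgeR's interval for the log2 fold change ran from 3.22 to 12.9. Slc5a12 lost its call without any 1 whole astrocyte library (adjusted p up to 0.0679 in edgeR). With Slc5a12 set to the 66.1-fold ratio, the median of the list stayed 4.06. Several of these transporters do not carry lactate, so the list stands for the family and not for lactate transport.

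Of 7 chaperones and partners, 2 were higher and 2 lower in edgeR, with a median log2 fold change of 0.99, against 20.7% and 13.9% of all tested genes. At an unadjusted p of at most 0.05, with DESeq2 and with limma voom, 4 were higher and 2 lower. Those settings called 25.6%, 25.6% and 27.2% of all genes higher and 19.0%, 16.2% and 31.1% lower. Emb (embigin), the chaperone of MCT2, rose from 10.8 ± 0.615 to 230.0 ± 238 normalized CPM, with a range of 70.3 to 698 over the endfeet libraries (log2 fold change 4.40 ± 0.782 SE, edgeR's adjusted p = 0.000800). Without endfeet library 1 its log2 fold change was 3.64, and against endfeet libraries 4 to 6 only it was 3.37, both still called. Nptn (neuroplastin), a relative of both chaperones, had 90.4 ± 6.86 against 179.8 ± 92.7 and did not pass (0.99, adjusted p = 0.0597), though it did without endfeet library 6 (adjusted p = 0.0413), with libraries thinned to the smallest (0.0491), with DESeq2 (0.0391) and with limma voom (0.00420). Txnip, which promotes the removal of GLUT1 from the cell surface, was higher (1.21, adjusted p = 0.0207), and Gipc1, a PDZ protein that binds GLUT1, was lower (-2.05, adjusted p = 0.0180), as was Stxbp3, which takes part in GLUT4 vesicle fusion (-1.82, adjusted p = 0.00799). Txnip and Gipc1 each lost the call without any 1 whole astrocyte library, and Txnip also without endfeet library 4 or 5 (adjusted p up to 0.0949 in edgeR).

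Hcar1, which encodes the lactate receptor, rose from 2.24 ± 0.746 to 34.3 ± 9.79 normalized CPM (log2 fold change 3.93 ± 0.581 SE, edgeR's adjusted p = 0.000196). Its 6 endfeet values all lay above its whole astrocyte values, a pattern shared by 18.9% of all tested genes. Ldhd, which encodes D-lactate dehydrogenase, had 33.0 ± 2.62 against 25.3 ± 10.1 and was not called (adjusted p = 0.575). These were the 2 tested genes of their list, 1 of them called higher, where 20.7% of all tested genes were.

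Of 4 tested hexokinase genes 0 were called in edgeR, against 34.6% of all tested genes. At an unadjusted p of at most 0.05 and with DESeq2, 1 was higher, and limma voom called 1 higher and 1 lower. Those settings called 25.6%, 25.6% and 27.2% of all genes higher and 19.0%, 16.2% and 31.1% lower. Hk1, the main hexokinase of brain, had 55.9 ± 4.15 against 42.2 ± 25.6 normalized CPM (log2 fold change -0.40, adjusted p = 0.566), and Hk2 had 4.55 ± 2.07 against 25.5 ± 24.4 (2.47, adjusted p = 0.0542). Hk1 passed as lower against endfeet libraries 4, 5 and 6 alone (edgeR's adjusted p = 0.0183) and with the library series as a covariate (0.0380). Hk2 passed as higher in both settings (0.0115 and 0.0141), without endfeet library 1 (0.0114), with at least 10 counts in every library (0.0308), with DESeq2 (0.00661), which called 41.9% of all genes it tested, and with limma voom (0.00811).

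Of 13 genes for the entry of pyruvate into mitochondria, 7 were lower and 0 higher in edgeR, where 13.9% of all tested genes were lower. The counts were the same at an unadjusted p of at most 0.05 and with DESeq2, which called 19.0% and 16.2% of all genes lower, while limma voom called 9 lower and 1 higher (31.1% and 27.2% of all genes). Their median log2 fold change was -1.72. Pdha1 and Dlat, subunits of pyruvate dehydrogenase, fell from 486 ± 22.3 to 140.5 ± 48.5 and from 483 ± 32.1 to 128 ± 32.0 normalized CPM (-1.79 and -1.92). Pdk2 and Pdk4, kinases that switch the complex off, fell from 553 ± 20.0 to 82.9 ± 52.7 and from 139 ± 6.50 to 15.2 ± 11.8 (-2.74 and -3.18). Mpc2, a subunit of the mitochondrial pyruvate carrier, Pdhx and the phosphatase gene Pdp1 fell by 1.67, 2.88 and 1.72 on the log2 scale. In all 7 the groups did not overlap, with the endfeet libraries below, as for Ldhb and for 23.8% of all tested genes. Pdp1 lost its call without whole astrocyte library 1 or 2 (adjusted p up to 0.0621 in edgeR) and had a log2 fold change of -2.32 without endfeet library 1, and Pdhx lost its call with the library series as a covariate (-2.44, edgeR's adjusted p = 0.0563). The list holds the complex, its kinases and its phosphatases, which act in opposite directions.

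Of 8 genes of the hypoxia-inducible factor (HIF) pathway, 2 were higher and 1 was lower in edgeR, with a median log2 fold change of -0.0258, against 20.7% and 13.9% of all tested genes. At an unadjusted p of at most 0.05, with DESeq2 and with limma voom, 2 were higher and 2 lower. Over all genes, those settings called 25.6%, 25.6% and 27.2% higher and 19.0%, 16.2% and 31.1% lower. Epas1 (HIF-2α), which is abundant in endothelium, rose from 714 ± 18.6 to 3856 ± 978 normalized CPM (log2 fold change 2.43 ± 0.292 SE, edgeR's adjusted p = 3.86e-05), and Hif1an rose by 2.26 (adjusted p = 0.00709). Vhl, which marks HIF subunits for degradation, fell from 302 ± 11.4 to 35.1 ± 29.2 (-3.09, adjusted p = 0.00115, and -3.74 without endfeet library 4). Hif1a had 116 ± 4.01 against 87.4 ± 38.2 and was not called (adjusted p = 0.400).

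**Figure D5:**
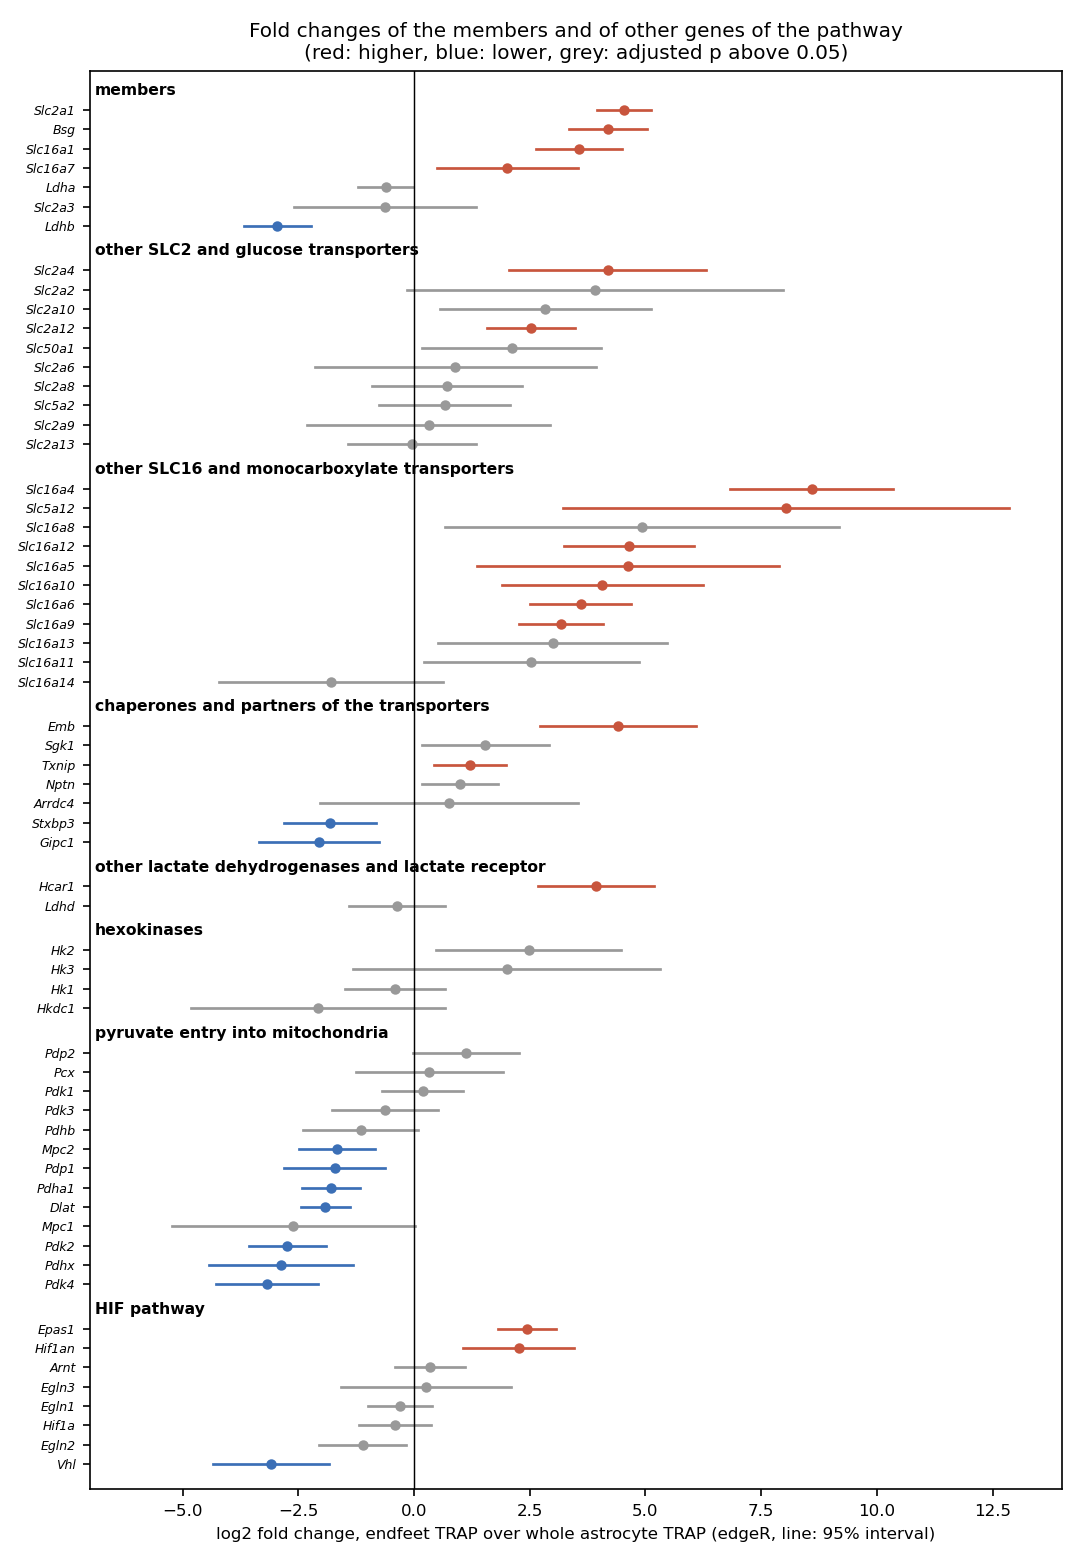
Log2 fold changes of endfeet over whole astrocyte TRAP (horizontal axis) with 95% intervals from edgeR for the 7 tested members and 55 other genes of the pathway lists. Red marks genes called higher, blue lower and grey not called, and the position of Slc5a12, which had no count in whole astrocyte TRAP, is a fitted value. Most monocarboxylate transporters lie to the right and most pyruvate genes to the left.

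For each member, the tested genes with the most similar profile were taken as those with the smallest root mean square distance of centred log2(CPM + 1) over the 9 libraries. For Slc2a1 these were Esyt2 (0.157), Rsad2 (0.213) and Serping1 (0.223), and for Bsg they were Cd59a (0.227), Rassf3 (0.232) and Cfap43 (0.250). For Slc16a1 they were Stom (0.286), St3gal6 (0.329) and Slc7a11 (0.332), and for Slc16a7 Fuca2 (0.213), Gpx3 (0.216) and Snx14 (0.226). Ldha was closest to Farp1 (0.118), Rrnad1 (0.139) and Txndc17 (0.153), Ldhb to Papss2 (0.262), Mid1ip1 (0.281) and Nrarp (0.325), and Slc2a3 to Zfp27 (0.208), Prrt2 (0.283) and Csrnp2 (0.446). No gene was among the closest 3 of more than 1 member.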

How the data were processed

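RNA bound to GFP-tagged ribosomes was immunoprecipitated, amplified (Ovation RNA-Seq system, NuGEN) and sequenced as reads of 50 bp. Per the methods and the labels, the authors demultiplexed reads with bcl2fastq 1.8.4, aligned them to mm10 with Bowtie, dropped multiply aligned reads and counted the rest with HTSeq 0.5.3 on Ensembl annotation. The deposited counts are raw, 1 value for each Ensembl transcript, without normalization. Transcripts were matched to GENCODE M21 on the same build (73164 of 75466, the 2302 others left out), and 22092 genes were each given the counts of the transcript highest in summed CPM. No 2 libraries held identical counts.

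Groups were compared over 9 libraries with edgeR 4.0.16 in R 4.3.3 (TMM, filterByExpr, glmQLFit, glmQLFTest, Benjamini-Hochberg over 14427 genes, threshold 0.05). Standard errors are the absolute log2 fold change over the square root of F. The study used DESeq2, here an alternative (1.42.0), as was limma 3.58.1 voom. Limma voom used weights for each group, which allow for their unequal spread, while edgeR and DESeq2 shared a dispersion per gene over both groups. Normalized CPM uses TMM factors over all genes. Marker scores are means of log2(CPM + 1), with exact permutation over 84 splits and adjustment over 9 lists. On simulated data with 14427 genes, edgeR called 27% of log2 changes of 2 and 78% of 4, with 5 unchanged genes called. DESeq2 called 49% and 90%, with 72 unchanged genes, and limma voom 20% and 72%, with 7. The simulation gave both groups the same dispersion, whereas the groups of the data differed (0.0141 against 0.724). These rates therefore do not measure those in the data.

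The members and lists were chosen with earlier results of these data known. One gene of the transporter lists is not reported here and is left out of their counts. Genes named are the members, genes of the lists (called ones or the most counted), markers beside a result and the 3 closest profiles. Hk2, Nptn, Ldhd and Hif1a were named after their values were seen. Alternatives were other tools, scalings and filters, counts summed over transcripts, thinned libraries, library series, replicate numbers as a block, other lengths and pseudocounts, and each library left out. Promoter windows came from RefSeq, and those of Slc2a3, Slc16a7 and Bsg were not analysed here.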

Additional observations from a re-analysis of the deposited data

Results flagged for a closer look

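Of 23 sets of 6 endfeet values (levels, ratios and marker scores) examined for a library far from the others, 1 stood out, where chance alone marks about 1 in 20. The log2 ratio of Slc2a1 to Slc2a3 per kilobase was 13.04 in endfeet library 6 and 5.10 to 7.79 in the 5 others, a gap of 0.661 of the whole range against a critical value of 0.625. This library had 0 counts of Slc2a3 and 2188 of Slc2a1, and the smallest total of all libraries, so its ratio rests on the 0.5 counts added. Without it the difference between groups was 5.30 (exact permutation, adjusted p = 0.0536).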

How the results depend on the processing

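The calls of Slc2a1, Slc16a1, Bsg and Ldhb were kept in all 19 alternatives run for each, Slc2a3 was not called in any of its 18, and no called value changed sign in any alternative. Slc16a7 lost its call in 11 of 18, 7 of them with 1 library left out, and also without a filter on low counts (1.94), with the library series as a covariate (1.66), with endfeet libraries 4 to 6 only (1.53) and with counts summed over transcripts (1.91, edgeR's adjusted p between 0.0542 and 0.142). Ldha was called with at least 10 counts in every library (-0.77), with endfeet libraries 4 to 6 only (-0.76) and with limma voom (-0.70). The cause of these changes was not tested. Leaving out each library in turn gave log2 fold changes of 1.70 to 2.24 for Slc16a7 and -0.70 to -0.46 for Ldha. It gave 1874 to 3380 genes higher and 1171 to 2642 lower, against 2991 and 2006, where each fit without a whole astrocyte library leaves 2 libraries in that group. Limma voom gave 4485 genes lower. The share of called genes that were higher was 59.9%, and it was 46.7% with limma voom and 49.8% with endfeet libraries 4 to 6 only. The median log2 fold change of all tested genes moved from 0.0965 to -0.29 with limma voom, -0.22 with the replicate block and -0.16 with endfeet libraries 4 to 6 only. Of the pathway genes, 22 were higher with DESeq2 and 23 with limma voom, against 14.

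Same-numbered replicates did not deviate together (mean correlation 0.0154 over 3 pairs, -0.0339 to 0.0715, against -0.00358 for 6 other pairs), so the numbers do not pair the samples. Replicate numbers 4 to 6 occur only in endfeet TRAP. With the number as a block, the group difference therefore came from libraries 1 to 3 of each group only. The block gave 2501 genes higher and 1958 lower. Its log2 fold changes were 4.48 for Slc2a1, 3.28 for Slc16a1, 2.18 for Slc16a7, 4.55 for Bsg and -3.01 for Ldhb, all still called. Under the block Slc16a5 (3.02, edgeR's adjusted p = 0.314) and Txnip (0.65) were not called, and Nptn (1.29, 0.0186) was.

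With endfeet libraries 4 to 6 only, 3 libraries against 3 allow no exact p under 0.1, so none of the permutation tests could pass. The log2 ratios then differed by 7.93 for Slc2a1 to Slc2a3, 2.42 for Slc16a1 to Slc16a7, 4.51 for Slc16a1 to Slc16a3, 2.47 for Ldha to Ldhb and 0.98 for Slc2a1 to Slc16a1. Marker scores differed by 6.62 (endothelial), 5.47 (mural), 3.69 (fibroblasts), 2.33 (microglia and macrophages), -1.43 (neurons), -0.93 (oligodendrocytes), -1.09 (astrocytes), 2.91 (ependymal and choroid plexus) and 1.77 (red blood cells). With all libraries they differed by 6.65, 5.55, 4.11, 2.34, -1.38, -1.09, -1.25, 3.37 and 2.06 (exact permutation, adjusted p = 0.0238 for astrocytes and 0.0134 for the others).

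With 1 library left out, the log2 ratios differed by 5.30 to 6.89 for Slc2a1 to Slc2a3, 1.45 to 1.97 for Slc16a1 to Slc16a7, 3.51 to 4.49 for Slc16a1 to Slc16a3, 2.22 to 2.55 for Ldha to Ldhb and 0.95 to 1.23 for Slc2a1 to Slc16a1. None of these 5 passed without any 1 whole astrocyte library (exact permutation, adjusted p = 0.0857) or without endfeet library 6 (0.0536 to 0.0643). Slc16a1 to Slc16a7 and Slc2a1 to Slc16a1 also missed without endfeet library 2 or 3. Each library left out lowers the number of arrangements and raises the smallest possible p.

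Levels per kilobase depended on the transcript length and on the counts used. With the mean length over transcripts, whole astrocyte and endfeet levels were 26.3 and 613 for Slc2a1, 20.1 and 12.9 for Slc2a3, 0.207 and 0.135 for Slc16a3, 141 and 92.0 for Ldha and 647 and 83.6 for Ldhb. With counts summed over transcripts, they were 19.7 and 419 for Slc2a1, 11.7 and 7.22 for Slc2a3, 0.230 and 0.108 for Slc16a3, 265 and 4761 for Bsg, 184 and 111 for Ldha and 873 and 112 for Ldhb, and 4.46 for Slc16a7 in whole astrocyte TRAP. With its coding transcript, Slc2a3 had 8.77 in whole astrocyte TRAP. Depth limits Slc16a3 in both groups and all low genes in endfeet library 6.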
